A study of Mus musculus with 21 samples.

Results

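The genes described here are 8 transcription factors that pattern the lateral and caudal ganglionic eminences (LGE and CGE): Sp8, Sp9, Nr2f1, Nr2f2, Prox1, Tshz1, Etv1 and Six3. Each gene was taken with every peak or region whose summit lay in its RefSeq gene body or within 100 kb of it, on the mouse genome build mm10. This gave 239 of 92305 peaks and regions of the 10 deposited lists, at 8 of 21631 protein-coding genes. Of these, 238 were peaks of chromatin immunoprecipitation followed by sequencing (ChIP-seq) and 1 was a region of altered chromatin accessibility.

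The series held 21 samples of basal ganglia primordium from CD1 mouse embryos. ChIP-seq was done on ganglionic eminences at E13.5 for 6 subunits of NuRD, with 1 library each and 3 inputs. ATAC-seq at E12.5 compared the accessibility of chromatin between embryos lacking Dlx1 and Dlx2 (KO) and wild type (WT), separately in cells labelled FTpos, from the ventricular zone, and FTneg, from the zones outside it (SVZ/MZ). There were 3 embryos per genotype and fraction, combined by the authors into 1 list per direction and fraction before deposit. The labels give no genotype for the ChIP samples and nothing of the KO alleles beyond Dlx1/2 -/-, and the tissue was not divided into LGE, CGE and medial (MGE) parts. A peak therefore cannot be assigned to a cell type, and the lists hold no expression values against which the tissue or the domain of each factor could be checked.

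For 3 of the 6 ChIP samples the deposited list carries another subunit's name: the list of the CHD4 sample is named HDAC1, that of the HDAC1 sample HDAC2, and that of the HDAC2 sample CHD4. These lists are called CHD4-labelled, HDAC1-labelled and HDAC2-labelled here, after the sample, and which protein each shows could not be settled. Each of the 3 inputs served 2 lists (CHD4-labelled with MBD3, HDAC1-labelled with HDAC2-labelled, RBBP4 with RBBP7), so lists of a pair are not independent. Depth was not given, each list stands for 1 library, and no test over samples was possible. All statements below describe these lists. The gene table gives no exons, so exonic and intronic peaks were not told apart.

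The ganglionic eminences are swellings of the embryonic ventral forebrain in which GABAergic neurons are born. The LGE gives rise to striatal projection neurons and olfactory bulb interneurons, and the CGE to a large class of cortical interneurons. DLX1 and DLX2 are homeodomain factors that act throughout this lineage, and NuRD joins a nucleosome remodeller (CHD4) with histone deacetylases (HDAC1, HDAC2), an MBD protein (MBD3) and histone-binding chaperones (RBBP4, RBBP7). Sp8 and Sp9 are paralogous zinc finger factors of LGE-derived and CGE-derived interneurons. Nr2f1 and Nr2f2, which encode the orphan nuclear receptors COUP-TFI and COUP-TFII, are paralogs prominent in the CGE. Prox1 is a homeodomain factor of CGE-derived interneurons, Tshz1 a zinc finger factor of the dorsal LGE, Etv1 an ETS factor and Six3 a homeodomain factor of the anterior forebrain.

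The sequences before the first annotated starts of both paralog pairs are printed. Peaks lay over all 4 of them, and the paralogs of each pair differed in base composition there. They come from RefSeq on GRCm38.p6, the assembly of mm10, run 5′ to 3′ on the gene's strand, and stop at the base before the gene. Capitals mark the motifs TAATTG (a homeodomain-type core) and GGGCGG (a GC box), on either strand. Sp8 covers chr12:118846079-118846287 (plus strand), Sp9 chr2:73271676-73271925 (plus), Nr2f1 chr13:78198874-78199123 (minus) and Nr2f2 chr7:70366747-70366996 (minus).
Sp8: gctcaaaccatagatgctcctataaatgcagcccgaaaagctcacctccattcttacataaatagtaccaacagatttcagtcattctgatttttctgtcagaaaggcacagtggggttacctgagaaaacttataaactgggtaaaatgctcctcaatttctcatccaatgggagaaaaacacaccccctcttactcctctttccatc
Sp9: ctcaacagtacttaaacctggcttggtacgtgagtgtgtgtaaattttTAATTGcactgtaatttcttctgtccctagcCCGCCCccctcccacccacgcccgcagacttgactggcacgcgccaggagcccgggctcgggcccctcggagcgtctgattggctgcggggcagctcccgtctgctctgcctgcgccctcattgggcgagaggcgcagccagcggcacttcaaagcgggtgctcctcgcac
Nr2f1: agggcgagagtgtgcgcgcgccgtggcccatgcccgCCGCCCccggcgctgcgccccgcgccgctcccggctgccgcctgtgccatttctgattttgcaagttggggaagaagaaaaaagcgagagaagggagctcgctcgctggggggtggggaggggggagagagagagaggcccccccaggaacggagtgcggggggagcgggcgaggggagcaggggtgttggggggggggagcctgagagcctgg
Nr2f2: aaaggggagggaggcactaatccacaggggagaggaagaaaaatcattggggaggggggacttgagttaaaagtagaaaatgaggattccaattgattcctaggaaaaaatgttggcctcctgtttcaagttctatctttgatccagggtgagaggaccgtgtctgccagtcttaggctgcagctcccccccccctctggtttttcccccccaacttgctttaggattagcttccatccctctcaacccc

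In the 250 bases before the first annotated start, GC content was 62.4% for Sp9 and 40.8% for Sp8. It was 72% for Nr2f1 and 50% for Nr2f2. There, 1 paralog of each pair lay above the median of 55.6% over 21045 promoters of the same length and 1 below it. At their other annotated starts, GC content was 67.2% and 50% for Sp8 and 39.6% for Nr2f1. The contrast within each pair thus describes the first starts only. The Sp9 promoter was overlapped by peaks of 4 lists (CHD4-labelled, HDAC1-labelled, RBBP4 and RBBP7) and the Nr2f1 promoter by the CHD4-labelled and RBBP4 lists. The first promoter of Sp8 was overlapped by an RBBP4 peak only and that of Nr2f2 by a CHD4-labelled peak only. Prox1 had a GC content of 64.8%, Six3 48.8% and Etv1 46.4% in the same window. No promoter was printed or searched for Tshz1.

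Of 4 motifs searched on both strands, TAATTA stood in the first promoter of 0 of 7 genes and in 4.24% of all promoters. TAATTG stood in that of 1 of 7, Sp9, and in 6.29% of all. AGGTCA, a nuclear receptor half-site, stood in 0 of 7 and 12.8%, and GGGCGG in 3 of 7 (Sp9, Nr2f1 and Prox1) and 43.1%. The shares cover every annotated promoter, 21045 of 17274 genes, and so are not the same measure as the counts over first promoters. Beyond the first promoters, AGGTCA and GGGCGG stood in 1 other promoter of Sp8 and TAATTA in another. TAATTG stood in the other promoter of Etv1 and GGGCGG in that of Prox1. TAATTA and TAATTG share a TAATT core and can overlap in a sequence, and a match describes letters in this window only.

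NuRD subunit peaks were spread very unequally over the 8 genes. Nr2f1 had 65 peaks in its window, Nr2f2 41, Sp9 34, Six3 33 and Tshz1 28, while Prox1 had 16, Sp8 12 and Etv1 9. The median over the 8 genes was 30.5 peaks, against 12 over all protein-coding genes with the same window, whose 90th percentile was 31. A count at least as high as that of Nr2f1 was found for 0.384% of all genes, whereas 51.1% reached that of Sp8 and 61.8% that of Etv1. Paralogs stood far apart in the Sp pair and were both high in the Nr2f pair.

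**Figure D1:**
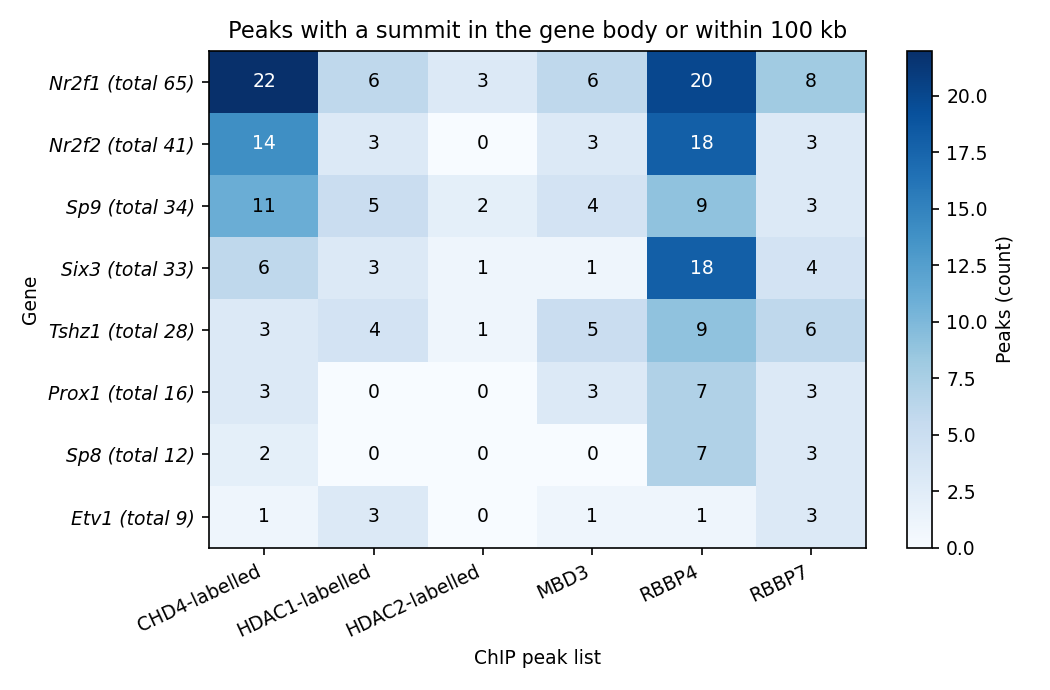
ChIP peaks (count) with a summit in the gene body or within 100 kb, by gene (rows, with totals) and deposited list (columns), 1 library per list. The CHD4-labelled and RBBP4 columns hold the largest values, 22 and 20 for Nr2f1, and the Etv1 row holds no value above 3.

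Nr2f1 held 22 CHD4-labelled, 6 HDAC1-labelled, 3 HDAC2-labelled, 6 MBD3, 20 RBBP4 and 8 RBBP7 peaks. Nr2f2 held 14, 3, 0, 3, 18 and 3 in the same order. The CHD4-labelled count of Nr2f1 was reached by 0.0601% of genes and its RBBP4 count by 0.559%. Its counts in the other 4 lists were reached by 2.35% to 9.41% of genes, so the excess was greatest in these 2 lists. For Nr2f2, 78.0% of the peaks came from these 2 lists, for Six3 72.7%, and for Etv1 22.2%.

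Sp9 held 11 CHD4-labelled, 5 HDAC1-labelled, 2 HDAC2-labelled, 4 MBD3, 9 RBBP4 and 3 RBBP7 peaks, and Sp8 held 2, 0, 0, 0, 7 and 3. Sp8 was thus listed in 3 of 6 lists and Sp9 in all 6. Six3 held 6, 3, 1, 1, 18 and 4, so RBBP4 made up most of the peaks in its window, 7 of them over Six2 and its flanks. Tshz1 was more even, with 3, 4, 1, 5, 9 and 6. Prox1 had 3, 0, 0, 3, 7 and 3 and Etv1 1, 3, 0, 1, 1 and 3. Only Sp8 and Prox1 of the 8 had no peak in either the HDAC1-labelled or the HDAC2-labelled list.

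Most of these presence calls were near the level of genes in general. CHD4-labelled peaks were present at 8 of 8 genes (77.6% of all protein-coding genes), RBBP4 at 8 (82.2%) and RBBP7 at 8 (60.5%). MBD3 was present at 7 of 8 (66.6%), the HDAC1-labelled list at 6 (67.4%) and the HDAC2-labelled list at 4 (45.5%). All 6 lists were present in the windows of Sp9, Nr2f1, Tshz1 and Six3, 4 of 8 genes, against 34.1% of all genes.

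**Figure D2:**
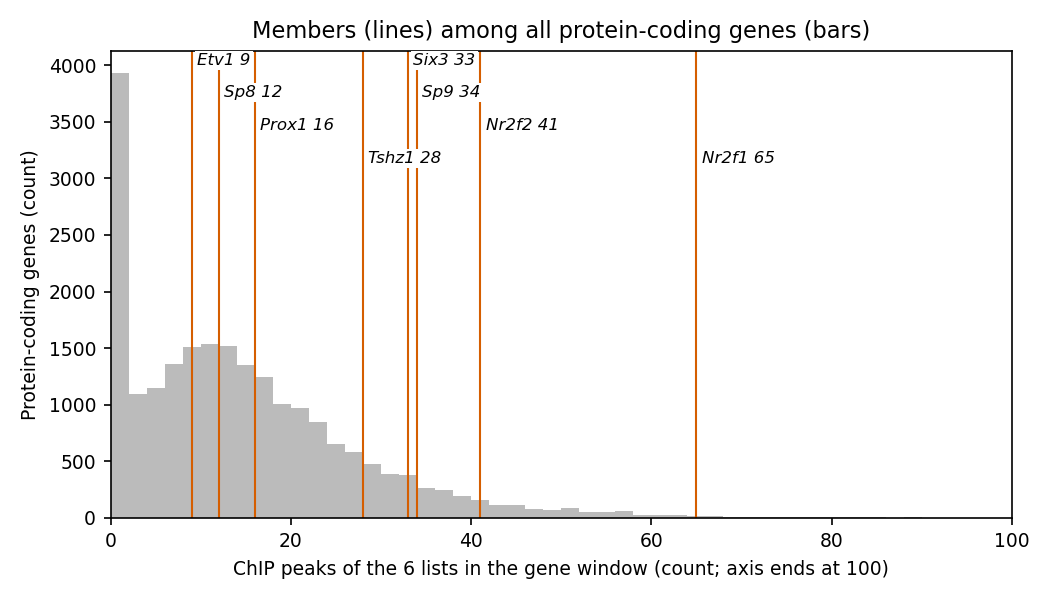
Distribution of the number of ChIP peaks of the 6 lists per window (x axis, count) over all 21631 protein-coding genes (bars, y axis, number of genes), with a line for each of the 8 genes. Etv1, Sp8 and Prox1 lie in the body of the distribution and Nr2f1, at 65 peaks, in its upper tail. The axis ends at 100 and the highest gene has 217.

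The windows differ in length and in what else they hold. They ran from 203.8 kb for Sp9 to 290.4 kb for Etv1, and scaled to 100 kb the counts were 31.0 for Nr2f1, 19.1 for Nr2f2, 16.7 for Sp9 and 15.5 for Six3. Tshz1 had 10.1, Prox1 6.33, Sp8 5.82 and Etv1 3.10 per 100 kb, with a median of 12.8 over the 8 genes and 4.77 over all genes. The order of the 8 genes was the same on both scales. Other protein-coding genes lie in 5 of the windows: Abcb5 near Sp8, Ola1, Cir1, Scrn3 and Gpr155 near Sp9, Fam172a near Nr2f1, Zadh2 near Tshz1 and Six2 near Six3. Of the 238 peaks, 165 (69.3%) had their summit within 10 kb of the gene's own body, 74 of them inside it. The same share over all genes was not counted, and such peaks can also lie at a neighbour, as at Zadh2 near Tshz1. Without Nr2f1, 173 of the 238 peaks were left.

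Peaks that overlapped were merged across lists, which gave 105 regions at these genes of 38820 in all. Of the 105, 64 held 1 list, 17 held 2, 8 held 3, 7 held 4, 6 held 5 and 3 held all 6 (2.86%, against 3.93% of all regions). Single-list regions were 61.0% of those at these genes and 48.1% of all, and regions with 5 or 6 lists 8.57% and 10.1%. The surplus of single-list regions came from RBBP4 alone (38 regions, 36.2% against 23.6% of all) and from the CHD4-labelled list alone (20 regions, 19% against 8.77%). It was uneven over the genes. Of the 20 CHD4-labelled regions, 12 lay at Nr2f1, 7 at Nr2f2 and 1 at Sp8. Of the 38 RBBP4 regions, 10 lay at Nr2f2, 9 at Six3 and 7 at Nr2f1, with the rest at Sp8, Tshz1, Prox1 and Sp9. RBBP7 alone gave 4 of the 105 regions (3.81%), against 4867 of all 38820. No test was made, since neighbouring regions of 1 gene share their surroundings.

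By list, RBBP4 was in 72.4% of the 105 regions (Wilson 95% interval 63.2 to 80.0, for counting error only), close to 72.5% of all regions. The CHD4-labelled list was in 47.6% (38.3 to 57.1) against 42.4%. The HDAC2-labelled list was in 5.71% (2.64 to 11.9), which is 6 regions, against 13.4% of all regions. These intervals treat regions as independent, although 28 of the 105 lay at Nr2f1 and 25 at Nr2f2. None was read as a test. HDAC1-labelled peaks were in 16.2% (10.4 to 24.4) against 23.6%, MBD3 in 19% (12.7 to 27.6) against 27.5%, and RBBP7 in 27.6% (20 to 36.8) against 36.5%.

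**Figure D3:**
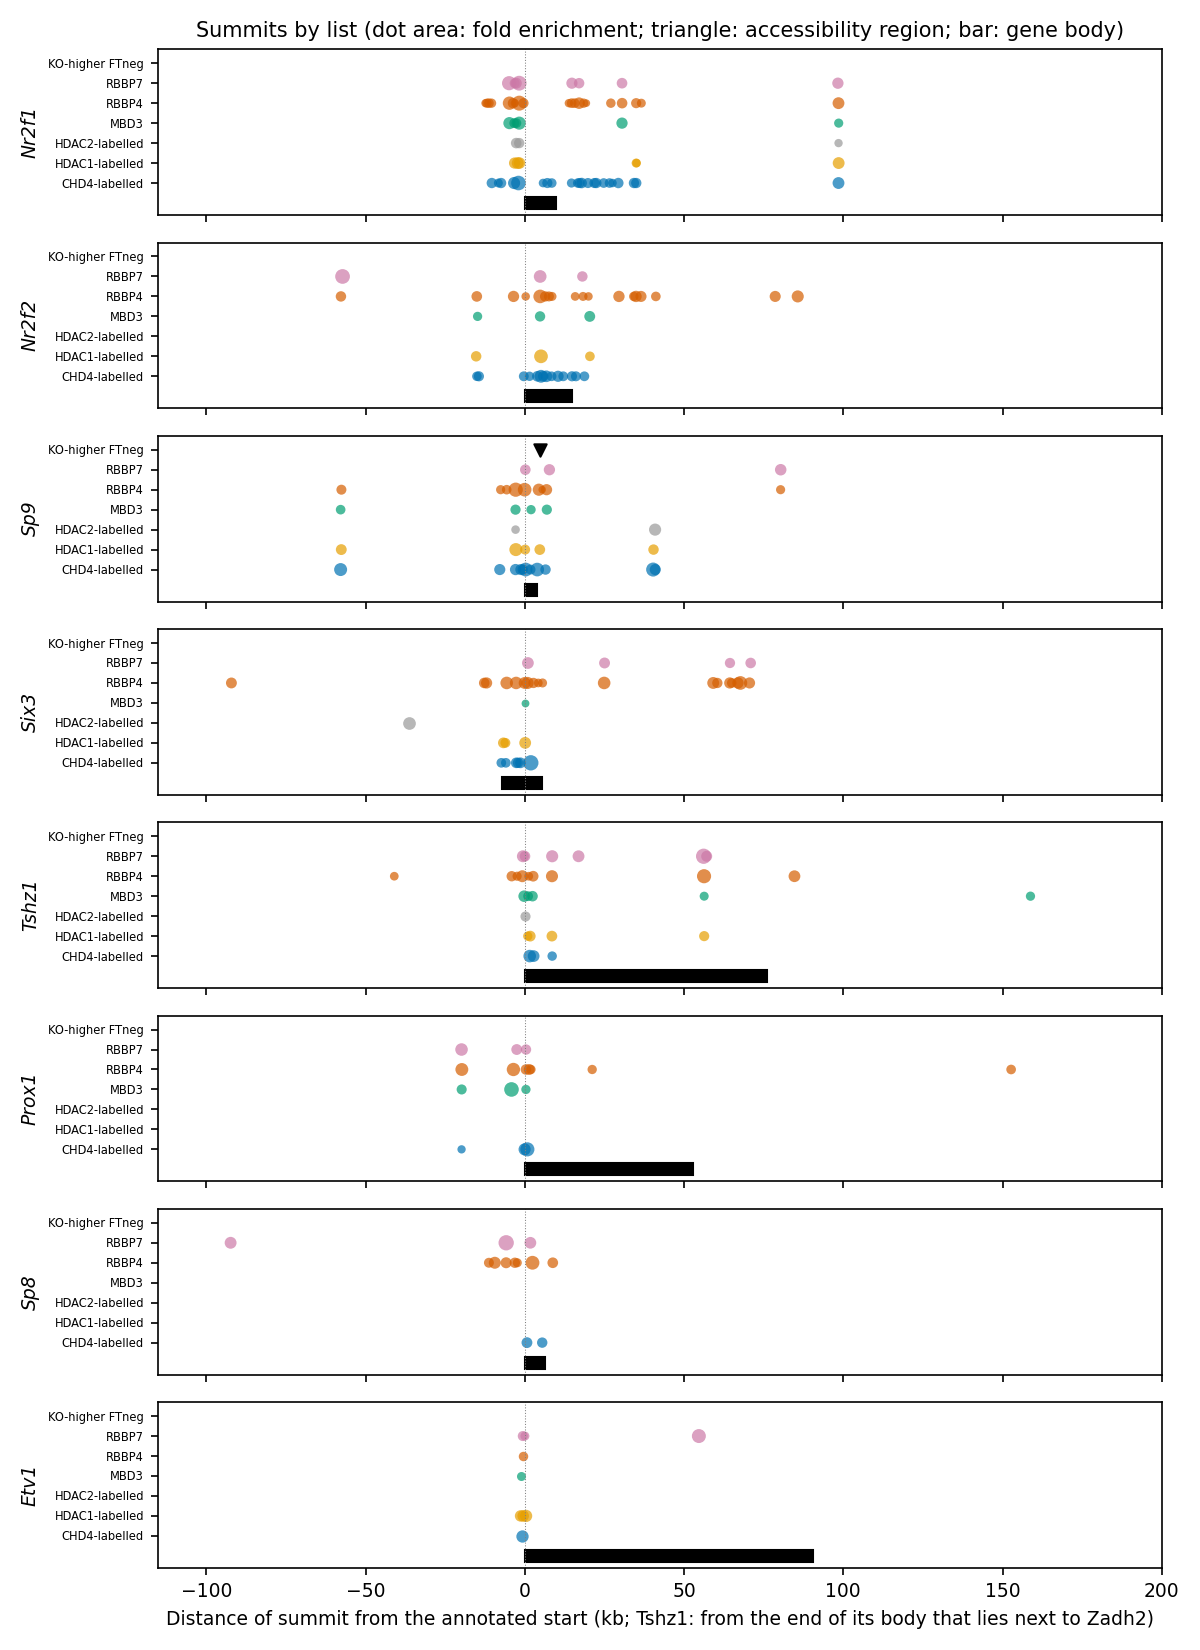
Summits of ChIP peaks (dots, area proportional to the authors' fold enrichment) in each list and of the accessibility region (triangle) around each gene, against distance from the annotated start in kb, downstream positive. Black bars are gene bodies. Tshz1 is measured from its end next to Zadh2, since no strand was used for it. The 28 regions of Nr2f1 extend on both sides of the gene, and those of Etv1 number 2.

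Nr2f1 (chr13:78188971-78198873, minus strand) carried the most regions, 28, and they covered 13.2% of its window. Of these, 19 held 1 list (12 the CHD4-labelled list, 7 RBBP4), 2 held 2 lists, 4 held 3 or 4, and 3 held 5 or 6. The region over its start, chr13:78193233-78201743, was 8511 bp long, rank 31 of 38820 by width, and was made of 11 peaks of all 6 lists. Its highest fold enrichments over input, a ratio computed by the authors' peak caller, were 9.85 in the CHD4-labelled, 6.46 in the HDAC1-labelled, 5.16 in the HDAC2-labelled, 7.92 in the MBD3, 10.4 in the RBBP4 and 10.2 in the RBBP7 list. All 6 lists shared the 560 bases chr13:78200219-78200778, upstream of the start. The summits of the HDAC1-labelled, HDAC2-labelled, MBD3 and RBBP7 lists lay within 200 bp of the RBBP4 summit there, and that of the CHD4-labelled list did not.

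The RBBP4 peak there ranked 631 of 29762 in its list. The CHD4-labelled peak spanned 8443 bp, rank 14 of 18274 by width, from the upstream side across the promoter into the gene body. Only an RBBP4 summit (fold 4.78) lay within 1 kb of the start itself, so Nr2f1 had 1 list there although 6 lists met nearby. A second region just upstream, chr13:78201828-78204105, held 9 peaks of 5 lists, lacking the HDAC2-labelled list, with folds of 6.78, 5.82, 6.83, 8.22 and 9.27 for the CHD4-labelled, HDAC1-labelled, MBD3, RBBP4 and RBBP7 lists. The place where most lists met at Nr2f1 thus lay upstream of the start rather than on it.

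A further region of all 6 lists lay at the far end of the Nr2f1 window, chr13:78099605-78101051, inside the body of Fam172a and 88656 bp from Nr2f1. Its folds were lower, 6.48, 6.48, 3.20, 3.89, 6.47 and 5.89 in the order used above, and the 6 lists shared 317 bases (chr13:78100205-78100521). This was the sole place at the 8 genes where the summits of the other 5 lists all lay within 200 bp of the RBBP4 summit. It was 96086 bp from the nearest start at its shared bases, and nothing in the lists assigns it to Nr2f1 or to Fam172a. Between it and Nr2f1, 4 regions of 3 lists lay 25075, 20632, 7168 and 4906 bp from the gene body.

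Nr2f2 (chr7:70351946-70366746, minus strand) had 25 regions covering 11.8% of its window, of which 10 were RBBP4 alone and 7 the CHD4-labelled list alone. In contrast to its paralog, the fullest region of Nr2f2 lay inside the gene. At chr7:70361282-70363174, 6 peaks of 5 lists overlapped, with folds of 7.62 (CHD4-labelled), 8.67 (HDAC1-labelled), 4.94 (MBD3), 8.55 (RBBP4) and 7.44 (RBBP7). The HDAC1-labelled peak ranked 261 of 11288. Within 1 kb of the start there were only a CHD4-labelled peak (4.48) and an RBBP4 peak (3.32), in the lower part of their lists (top 78.2% and 93.2%).

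Farther away, a region of 4 lists without RBBP7 lay 15060 bp upstream of Nr2f2 (chr7:70381461-70382270), with folds of 4.20, 5.04, 3.95 and 5.24 for the CHD4-labelled, HDAC1-labelled, MBD3 and RBBP4 lists. At 57207 bp upstream, an RBBP7 peak of fold 10.0 met an RBBP4 peak of 5.04 (chr7:70423767-70424616). No protein-coding gene other than Nr2f2 lies in this window.

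Sp9 (chr2:73271926-73275771, plus strand) differed from the Nr2f genes in having few single-list regions, 1 of 9. Its start lay in a region of 7392 bp, chr2:73270281-73277672, rank 46 by width, which spanned the whole gene and was made of 12 peaks of 5 lists. Folds reached 8.77 (CHD4-labelled), 5.32 (HDAC1-labelled), 4.0 (MBD3), 8.59 (RBBP4) and 5.19 (RBBP7), and at most 4 lists met at 1 base. Within 1 kb of the start lay 4 lists: CHD4-labelled, HDAC1-labelled, RBBP4 and RBBP7.

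The region next upstream, chr2:73268308-73270193 with its summit 2836 bp from the gene, held 5 lists at a shared base and lacked RBBP7. Its folds were 5.85 (CHD4-labelled), 7.84 (HDAC1-labelled), 3.40 (HDAC2-labelled), 4.81 (MBD3) and 9.33 (RBBP4). The HDAC1-labelled and RBBP4 peaks were the highest of Sp9 in their lists (top 4.35% and 3.86%). On the other side, chr2:73278312-73280802 held CHD4-labelled, MBD3, RBBP4 and RBBP7 peaks of fold 4.79 to 5.85, of which at most 3 lists met at 1 base. A CHD4-labelled peak (5.72) and an RBBP4 peak (3.90) overlapped 7845 bp upstream of the gene (chr2:73263838-73264614). The remaining multi-list regions in the window lay at or in neighbours: 4 lists at the start of Ola1, 2 lists in each of 2 regions at the starts of Cir1 and Scrn3, and 2 lists in Gpr155.

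**Figure D4:**
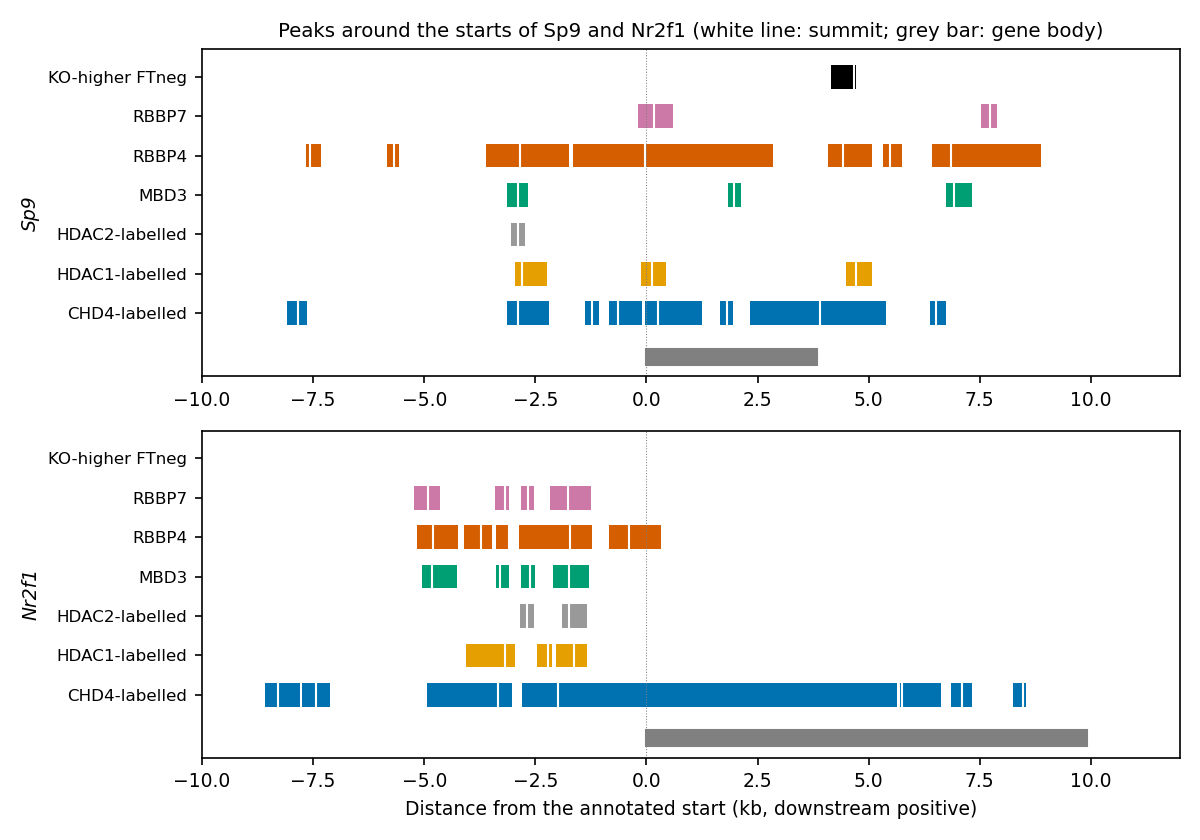
Extent of each peak (coloured bars, 1 row per list) from 10 kb before to 12 kb after the annotated starts of Sp9 and Nr2f1, x axis in kb, with summits in white and gene bodies in grey. At Sp9 the KO-higher FTneg region (black) lies just past the gene end over peaks of 3 lists. At Nr2f1 the 6 lists meet upstream of the start and 1 CHD4-labelled peak of 8443 bp reaches into the gene.

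Sp8 (chr12:118846288-118852578, plus strand) had 9 regions, 7 of them with 1 list (5 of RBBP4, 1 of RBBP7 and 1 of the CHD4-labelled list). Its starts, of which the annotation gives several, lay in a region of 4195 bp (chr12:118846235-118850429) with an RBBP4 peak of fold 8.80, an RBBP7 peak of 6.34 and a CHD4-labelled peak of 5.42. The RBBP4 peak was 4195 bp wide, rank 77 of 29762. The other multi-list region, 5790 bp before the gene (chr12:118840125-118841285), paired an RBBP7 peak of fold 10.8 with an RBBP4 peak of 5.58. Neither MBD3 nor the HDAC1-labelled or HDAC2-labelled list had a peak in the window, unlike at Sp9.

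Prox1 (chr1:190118035-190170827, minus strand) had 5 regions in its window. Its start lay in chr1:190168776-190172071, which held 7 peaks of 4 lists with folds up to 9.20 (CHD4-labelled), 3.98 (MBD3), 5.46 (RBBP4) and 4.94 (RBBP7). Directly upstream, chr1:190172232-190175522 held the highest MBD3 peak at any of the 8 genes (fold 9.84, rank 297 of 11721) with RBBP4 (8.19) and RBBP7 (5.44). At most 2 of these lists met at 1 base. The same 4 lists as at the start met again 19751 bp upstream (chr1:190190348-190191139), there with RBBP4 (7.66) and RBBP7 (7.26) above MBD3 (4.69) and the CHD4-labelled list (3.18). The order of folds at these 2 places was therefore different, and no HDAC1-labelled or HDAC2-labelled peak was listed.

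Tshz1 (chr18:84011627-84087708) had 11 regions. The widest, chr18:84085729-84089368 (3640 bp), held 10 peaks of all 6 lists, although at most 5 lists met at 1 base. Folds were 7.31, 5.39, 4.75, 6.14, 6.61 and 6.58 for the CHD4-labelled, HDAC1-labelled, HDAC2-labelled, MBD3, RBBP4 and RBBP7 lists. It also covered an end of Zadh2, whose body begins 418 bp from Tshz1, so its peaks cannot be given to either gene alone. Inside Tshz1, chr18:84031098-84031773 held an RBBP7 peak of fold 10.7 and an RBBP4 peak of 9.22 with weaker HDAC1-labelled (4.76) and MBD3 (3.77) peaks, and chr18:84078822-84079418 held 4 lists without MBD3.

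Etv1 (chr12:38780082-38870483, plus strand) had 2 regions in the longest window of the set. The start, chr12:38778150-38781483, held 8 peaks of 5 lists, with folds of 6.99 (CHD4-labelled), 6.93 (HDAC1-labelled), 3.76 (MBD3), 4.14 (RBBP4) and 4.65 (RBBP7). At most 4 lists met at 1 base. The other region was an RBBP7 peak of fold 9.01 inside the gene (chr12:38834486-38835443), where no other list had a peak. Of the 9 peaks of Etv1, 0 were in the top 10% of their list.

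Six3 (chr17:85613608-85626191, plus strand) had 16 regions, 9 of them RBBP4 alone. Its annotated start and 3′ part lay in chr17:85620188-85625555 (5368 bp, 8 peaks of 5 lists), where the CHD4-labelled fold of 10.9 was the highest of that list at the 8 genes. The other folds there were 6.44 (HDAC1-labelled), 2.83 (MBD3), 6.81 (RBBP4) and 6.37 (RBBP7). At most 4 lists met at 1 base of this region. Adjoining it toward the upstream end of the gene body lay regions of 2605 bp (CHD4-labelled and RBBP4) and 4760 bp (CHD4-labelled, HDAC1-labelled and RBBP4). Together these 3 regions cover nearly the whole Six3 body. An HDAC2-labelled peak with no other list lay 29216 bp upstream (chr17:85584181-85584539), with fold 7.43 and rank 138 of 5517. Over the neighbouring paralog Six2 and its flanks lay 7 RBBP4 peaks (fold 4.27 to 8.68) and 2 RBBP7 peaks (4.85 and 5.17), with 0 of the other 4 lists.

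The starts of the 8 genes carried a median of 3.5 lists, against 1 over all genes. Within 1 kb of an annotated start, Tshz1 had summits of 5 lists (with both ends of the gene counted), Sp9, Prox1 and Six3 of 4, Etv1 of 3, Sp8 and Nr2f2 of 2 and Nr2f1 of 1. Over all genes 43.2% had none, 19.5% had at least 4 and 9.56% at least 5. RBBP7 had a summit there at 6 of 8 genes (Sp8, Sp9, Prox1, Tshz1, Etv1 and Six3), against 12.4% of all genes. RBBP4 had one at 7 (46.9%), the CHD4-labelled list at 4 (44.7%), the HDAC1-labelled list at 4 (28.1%), MBD3 at 3 (23.8%) and the HDAC2-labelled list at 1 (10.1%). Genes without a single peak anywhere in their window are part of these background shares.

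Although starts were occupied, most regions lay away from them, as did most merged regions in general. A region that reached within 1 kb of any gene start made up 15 of 105 (14.3%), against 36.0% of all merged regions. Of the 15, 10 were at the member's own start. This comparison was not matched for the number of gene starts in the windows. Some start regions were wide, while the 2 at the start of Nr2f2 spanned 444 and 394 bp. Of the 105 regions, 9 (8.57%) spanned at least 3 kb, against 1.89% of all, and 7 of those 9 lay at the gene's own start. Of the 9 regions with 5 or 6 lists, 5 lay there as well. How often all regions of either kind lie at a start was not counted. Neither count can therefore be called particular to these genes. A wide merged region can join separate peaks, and the thresholds of 1 kb on the interval and of 3 kb were set after values had been seen.

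**Figure D5:**
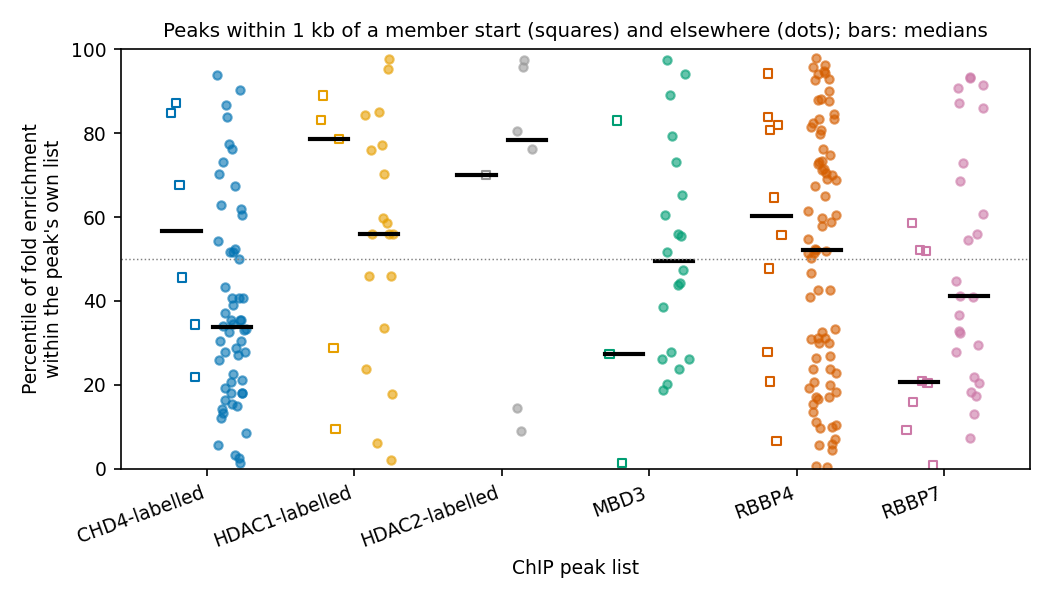
Fold enrichment of each ChIP peak at the 8 genes as a percentile within its own list (y axis, 0 to 100), by list (x axis), for summits within 1 kb of the gene's start (squares) and elsewhere (dots), with medians as bars. RBBP7 peaks at starts have a low median of 20.7. The 5 HDAC1-labelled peaks at starts have a high median of 78.5 but range from 9.45 to 89.0.

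Peaks at these genes were of ordinary height for their lists. The median percentile of their folds within the list was 34.5 for the CHD4-labelled list (62 peaks), 57.2 for HDAC1-labelled (24), 76.2 for HDAC2-labelled (7), 47.5 for MBD3 (23), 52.4 for RBBP4 (89) and 40.9 for RBBP7 (33). Of the 238 peaks, 22 (9.24%) were in the top 10% of their list by fold. The many CHD4-labelled peaks were mostly low ones, at a median fold of 4.97 against 5.64 for that list. RBBP7 peaks at the genes' own starts had a low median percentile of 20.7 over 8 peaks (range 0.747 to 58.6). The 5 HDAC1-labelled peaks there had a median of 78.5. Those 5 ranged from 9.45 at Tshz1 to 89.0 at Etv1, which gave 2 of them. A ranking within 1 list does not compare occupancy between lists.

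Accessibility in Dlx1/2 KO embryos differed from WT at 1 of the 8 genes, Sp9. The list of regions more open in KO than in WT FTneg cells had a region at chr2:73276087-73276635, 549 bp long, which begins 316 bp past the end of the Sp9 body. Its area under the curve of −log10 p, the score deposited by the authors, was 651, rank 427 of 727, below the list's median of 704. The same window around protein-coding genes held such a region for 5.38% of all genes, and 1 gene of 8 cannot be set apart from that share. The other 3 lists had 0 regions at the 8 genes: regions more open in WT FTneg (0.300% of all genes), in KO FTpos (0.208%) and in WT FTpos (0.199%). Those 3 lists are short, with 53, 12 and 33 regions.

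The Sp9 region lay over peaks of 3 NuRD lists. A CHD4-labelled peak (chr2:73274248-73277313, fold 8.63) and an RBBP4 peak (chr2:73276022-73276991, fold 6.85) each covered all of it. An HDAC1-labelled peak (chr2:73276411-73277008, fold 5.32) covered 41.0% of it and had its summit 53 bp from the accessibility summit. The RBBP4 summit was 248 bp and the CHD4-labelled summit 756 bp away. MBD3, RBBP7 and HDAC2-labelled peaks were not listed over it, although MBD3 and RBBP7 had peaks elsewhere in the same merged region. Of all 727 regions of that list, 71.3% overlapped a ChIP peak of at least 1 list. Sp9 lies 1725 kb from Dlx2 on the same chromosome.

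Beyond 100 kb, regions more open in KO FTneg cells came next at Sp9, 128963 bp from its body (chr2:73142788-73143280, area 942, rank 186) and 185729 bp (chr2:73085801-73086303, area 1253, rank 88), and at Sp8, 186581 bp (chr12:118659366-118660126, area 801, rank 264). All 3 overlapped ChIP peaks. The first Sp9 region lay inside the body of Ola1 (chr2:73092801-73214447), and the second lay past the far end of that body. Both were nearer to Ola1 than to Sp9. Sp8, which had 0 regions within 100 kb, was the nearest protein-coding gene to its own region. Peaks of 4 lists (CHD4-labelled, MBD3, RBBP4 and RBBP7) lay over the Sp8 region. The nearest such region lay 213871 bp from Prox1, 217164 bp from Six3, 295176 bp from Nr2f1 and 524590 bp from Nr2f2. For Etv1 and Tshz1 it was 1967 kb and 2468 kb away. The 2 genes with the most NuRD peaks, Nr2f1 and Nr2f2, thus had no listed change in accessibility within 200 kb. The same held for Six3, Tshz1, Prox1 and Etv1, which had fewer peaks. A region absent from a list was not shown to be equal in the 2 genotypes, since only regions past the authors' area of 500 were listed.

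Other gene lists gave a frame for these values. Among 11 paralogs of the 8 genes, the median was 24 peaks, and Tshz2 (55), Nr2f6 (40) and Sp5 (32) had the most. Nr2f6, the third gene of the Nr2f family examined, had a region of all 6 lists and summits of 6 lists within 1 kb of a start, where Nr2f1 had 1. Six6 had 13 peaks, 12 of them RBBP4. RBBP4 made up 18 of 33 peaks at Six3, of which 7 lay over Six2 and its flanks, and 7 of 12 at Sp8. Etv4 had 13 peaks and Etv5 12, near the 9 of Etv1, and Prox2 had 6 against 16 for Prox1. Among the paralogs, 1 of 11 (Sp5) had a region more open in KO FTneg cells, against 5.38% of all genes.

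Among 25 other genes of the LGE, CGE and striatum, the median was 43 peaks, above the 30.5 of the 8 genes, and 16 of 25 (64.0%) had a region of all 6 lists in the window, against 2 of 8 here (Nr2f1 and Tshz1) and 16.1% of all genes. In that list 7 of 25 had a region more open in KO FTneg cells (5.38% of all genes), among them Gsx1, Gsx2, Pax6 and Foxp2. Among 8 MGE factors the median was 20 peaks, 3 had a region of all 6 lists, and 3 had a region more open in KO FTneg cells (Lhx8, Sox6 and Nkx2-1). Per 100 kb of window the medians were 12.8 for the 8 genes, 11.8 for the other LGE, CGE and striatal genes, 8.71 for the paralogs and 7.82 for the MGE factors, so the order by length-scaled density differed from that by count. These differences between lists were not tested. Shares of genes with a listed region were not scaled to window length. Long genes such as Foxp2 and Zfhx3 have longer windows, which can hold more regions.

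Likeness of the profile over the 10 lists was measured as the Euclidean distance of log2(count + 1). Among the 8 genes, Nr2f2 and Six3 were closest (1.82) and Nr2f1 and Etv1 farthest apart (5.76). Paralogs were not the nearest pairs: Nr2f1 and Nr2f2 differed by 2.66 and Sp8 and Sp9 by 4.44. Among genes outside these windows, the closest were Lrpap1 for Sp8 (0.375), Prr3 for Sp9 (0.606), Os9 for Nr2f1 (0.766) and Kmt2d for Nr2f2 (0.648). For Prox1 it was Trim63 (0.448), for Tshz1 Zfand3 (0.416), for Etv1 Lrrc30 (0.415) and for Six3 Foxd2 (0.920). Six3 and Nr2f1 thus had the least close matches, and a shared count profile says nothing of shared function.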

How the data were processed

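The submitters' processing notes name MACS2 2.2.7.1, Genrich, BWA, deepTools and SAMtools 1.10, with mm10 as the build. Their settings are not given in the sources used here. ChIP cells, per the labels' protocols, were fixed with 5 mM DSG and 1% PFA. Each ChIP list came as deposited by the authors, called against input, with the fold enrichment at each summit (a ratio over input) and its −log10 p and −log10 q. Accessibility regions carry a score deposited by the authors: −log10 p summed over the region as an area, kept at 500 or more. Blacklisted regions had been removed from the ChIP lists per the names of the lists.

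Lists were read with Python 3.11.15, pandas 2.3.3 and numpy 2.4.6. Genes were 21631 protein-coding RefSeq genes on chromosomes 1 to 19 and X. Annotated starts came from the RefSeq promoter table, which gave them for 17274 genes, 7 of the 8 described here among them. Both gene ends were used for the others. Peaks overlapping by at least 1 bp were merged. Counts by window were checked on simulated lists with known answers (48 of 48 correct). No test was made, since lists have no replicates. Depth is unknown. Intervals are Wilson 95% intervals and cover counting error only.

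All 8 genes were named. For each, every accessibility region, every region of all 6 lists, the fullest other region and the gene start were described by rule. Other regions, the printed promoters, the 1 kb rule for merged regions, the 3 kb and 10 kb limits, the base where most lists met and the flanks of Six2 were chosen after values had been seen. Members, gene lists and motifs were chosen with earlier results of these data known. Alternatives tried were the window, a −log10 q of at least 10, overlap in place of summits, summits within 200 bp, an area of at least 1000, and leaving out lists. Values of some genes of the comparison lists are not reported here.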

Additional observations from a re-analysis of the deposited data

How the results depend on the processing

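Of 35 alternatives, 22 left the value within 1.5 times (for the share at gene starts, within its interval) and 13 did not. With the gene body alone, 74 of 238 ChIP peaks, 24 of 105 merged regions and 0 of 3 regions of all 6 lists were left, and the share of regions at a gene start was 25% in place of 14.3%. With peaks of −log10 q of at least 10, 109 peaks, 60 regions and 1 region of all 6 lists were left, the last at the start of Nr2f1. The HDAC2-labelled peak over the bases shared by all 6 lists there (−log10 q 9.42) was lost. Another HDAC2-labelled peak (10.1), outside those bases, kept the region at 6 lists. With summits within 200 bp, 1 region of all 6 lists was left, a different one, inside Fam172a. The window of 200 kb gave 4 KO-higher FTneg regions in place of 1, of which 4 overlapped a ChIP peak, and an area of at least 1000 gave 0 and 0. The 3 lists named as their sample is labelled, an alternative chosen after seeing the data, gave 145 peaks. In these cases fewer or more peaks, or a different window, entered by construction.

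At −log10 q of at least 10 the counts were 23 for Nr2f1, 20 for Nr2f2, 19 for Six3, 15 for Sp9, 13 for Tshz1, 10 for Prox1, 6 for Sp8 and 3 for Etv1, so Six3 passed Sp9. With the 3 such lists, 14 of 95 regions (14.7%) held all 3, against 13.4% of all regions. No paired analysis was possible because the result comes from no test and the embryos were combined in each list. Unknown depth limits what an absent peak shows.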
